A study of Homo sapiens with 6 samples.

Results

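Strong chromatin accessibility peaks found only in clone 2 of U937 cells depleted of the neutrophil serine proteases were described. A peak belonged to this set if its interval in the clone 2 list had a highest −log10 q of 5 or more and overlapped, by 1 bp or more, no interval of the 5 other lists. Chromosomes 1-22 and X were used, leaving out chromosome 1 from 210 Mb, chromosome 5 before 40 Mb, and chromosomes 8, 13, 15, 20 and 21. This gave 4790 intervals, which were 56.2% of the 8519 strong clone 2 intervals on that sequence and 4790 of the 41444 intervals of the 6 lists on chromosomes 1-22 and X. By the same rule, 2124 of 5308 strong intervals of clone 1 (40%) and 18 of 371 of clone 3 (4.85%) were private. The members were thus chosen by measured values, the clone 2 −log10 q and absence from the other lists. Over clone 2 intervals of any strength, 68.5% were private.

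ATAC-seq inserts sequencing adapters into open DNA with a transposase, so a pile-up of insertions marks an accessible site. U937 is an established monocytic line from a histiocytic lymphoma. The series holds 3 control lines that received control plasmids and 3 independent ΔNSPs clones, depleted at once of CTSG, ELANE and PRTN3, the genes of cathepsin G, neutrophil elastase and proteinase 3. Both groups were selected with geneticin, treated with DNase, washed and frozen in a DMSO medium before the assay. Accessible sites near a gene's 5′ end mostly mark its promoter, and those inside genes or between genes include enhancers and other regulatory elements. Promoters of widely expressed genes are rich in G, C and CpG and are open in most cell types, whereas distal elements vary more between cell types and states.

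All members come from 1 library of 1 clone. Each has a value in the clone 2 list and, by the rule, no interval in the lists of clones 1 and 3 and control lines 1, 2 and 3. The absence of an interval is not a measured level of 0, and the lists differ in length. On the sequence used, control lines 1, 2 and 3 had 8, 4 and 2 intervals, and clones 1, 2 and 3 had 12035, 18711 and 1550. With no replicate of the set, no test was made; intervals in brackets are exact Clopper-Pearson 95% limits, which cover counting error only. Clone 1 removed most overlapping intervals from the set: without the clone 1 list 7623 intervals would be private, without clone 3 4919, and without the 3 control lists 4790. No source used here gives read totals, and library depth is therefore unknown.

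The sequences of 5 members show what such peaks look like at promoters. They are the protein-coding and antisense examples among the 6 members with the highest −log10 q whose summit lay in a promoter window (250 bases before to 50 after a 5′ end). Each line gives the part of the member that lies in the 250 bases upstream of the 5′ end, on the gene's strand, from RefSeq promoters of GRCh38.p14. The member at TMEM248, chr7:66920850-66921120, reaches farther upstream than the stretch shown. Capitals mark letters that match a searched motif.
ZNF627, chr19:11597262-11597474, plus strand: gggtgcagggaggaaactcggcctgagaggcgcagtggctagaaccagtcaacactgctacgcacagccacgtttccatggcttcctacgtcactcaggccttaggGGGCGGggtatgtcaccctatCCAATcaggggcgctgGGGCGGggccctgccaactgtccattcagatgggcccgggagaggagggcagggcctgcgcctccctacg
CDCA3, chr12:6851308-6851477, minus strand: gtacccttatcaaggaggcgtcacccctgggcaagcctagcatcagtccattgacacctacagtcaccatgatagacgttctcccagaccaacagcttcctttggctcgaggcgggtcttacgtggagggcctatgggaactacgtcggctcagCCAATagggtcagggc
TMEM248, chr7:66920975-66921120, plus strand: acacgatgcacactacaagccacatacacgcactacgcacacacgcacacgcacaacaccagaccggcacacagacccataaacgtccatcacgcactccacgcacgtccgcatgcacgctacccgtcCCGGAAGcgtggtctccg
ELN-AS1, chr7:74062281-74062387, minus strand: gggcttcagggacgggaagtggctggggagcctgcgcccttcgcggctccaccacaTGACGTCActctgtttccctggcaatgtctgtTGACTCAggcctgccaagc
PLA2G6, chr22:38181831-38181936, minus strand: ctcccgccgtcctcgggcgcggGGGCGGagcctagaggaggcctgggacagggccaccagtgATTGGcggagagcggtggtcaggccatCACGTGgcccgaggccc

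The 5 sequences differed in composition. The stretch at PLA2G6, which encodes a phospholipase, was 74.5% G and C and held 1 GGGCGG, 1 CCAAT on the opposite strand and 1 CACGTG. At ZNF627, a zinc finger gene, 2 GGGCGG and 1 CCAAT stood in 213 bases of 64.8% G and C. The stretch at CDCA3, a cell cycle gene, lies between it and USP5, which encodes a deubiquitinating enzyme; it was 57.1% G and C and held 1 CCAAT. TMEM248, a membrane protein gene, had 1 CCGGAAG, the core of ETS factor sites, and ELN-AS1, transcribed antisense to the elastin gene, had 1 TGACGTCA and 1 TGANTCA, the letters of CREB and AP-1 sites. A match of letters is not a measured binding site.

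The members were narrow, mostly with a single summit, and high in fold. The values in this paragraph chose the members or come from the same peak calls, and are a description. The −log10 q ran from 5.00 through a median of 7.10 to 47.6, and the fold enrichment over the local background from 2.13 through 5.27 to 14.7. The other strong clone 2 intervals, those overlapping another list, had a higher median −log10 q (8.90) but a lower median fold (4.18). Width had a lowest value of 61 bp, a median of 102 bp and a highest value of 1387 bp, against a median of 161 bp in the others. A single summit was listed in 91.5% of members and 73.1% of the others. The fold was 5 or more in 57.6% of members and 26.8% of the others.

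Pile-up and local background were derived from each fold and its p value on the −log10 scale. Members had a median pile-up of 22 reads (10 to 128) over a median background of 3.35 reads (0.878 to 41.4). The other strong intervals had 37 reads over 8.09 reads. Members thus had fewer reads at the summit and a lower background. At the lowest background of the list stood 191 members and 6 of the others.

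**Figure D1:**
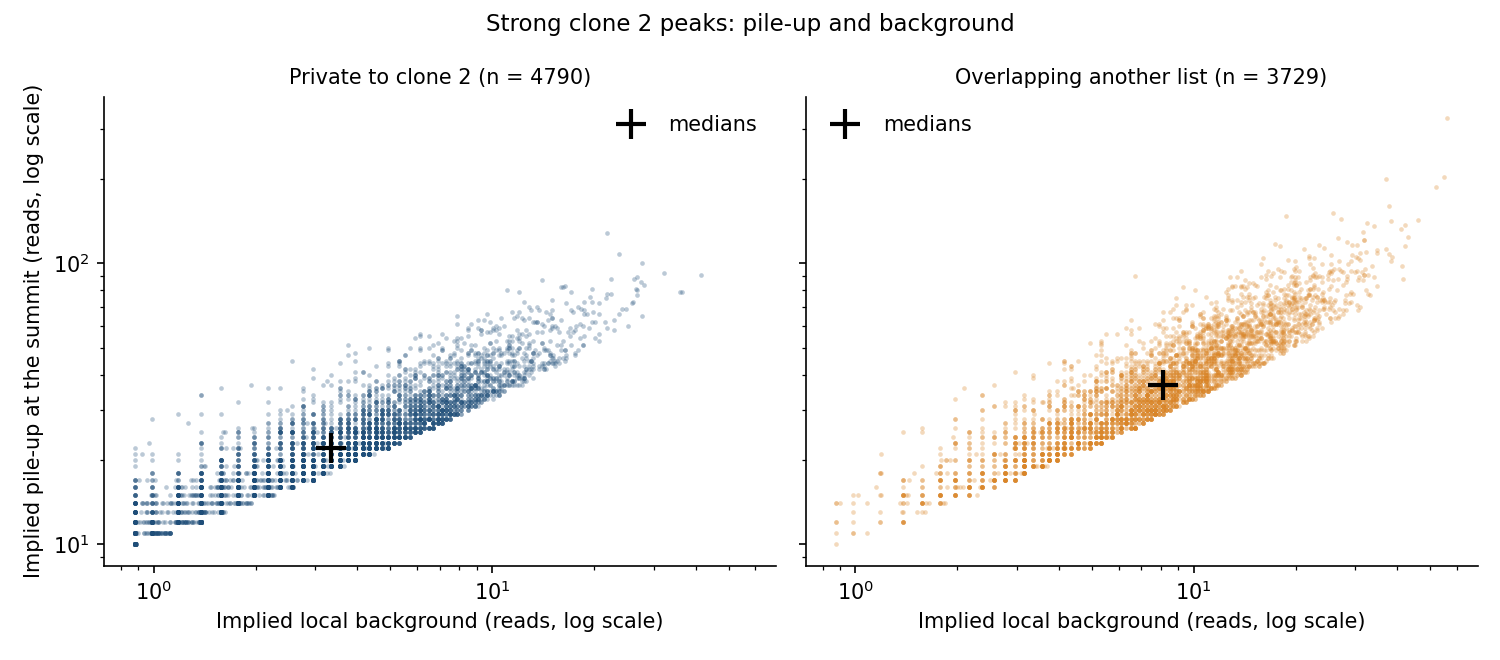
Implied pile-up at the summit against implied local background, both in reads on log axes, for the 4790 strong clone 2 intervals private to the clone (left) and the 3729 that overlap another list (right). Each point is an interval and the cross marks the medians, which are 22 over 3.35 reads on the left and 37 over 8.09 reads on the right.

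The threshold fell within a continuous range of values. Just inside it, 23 members were tied at a −log10 q of 5.00, with folds of 3.50 to 3.88 and pile-ups of 22 to 26 reads, among them one in MAD1L1 and one in ARLN. Just outside it were private intervals in IQSEC1 (4.99, fold 4.87), in UNC5B (4.99, fold 5.64) and at an end of GRM3 (4.98, fold 4.23). A further 8032 private intervals of clone 2 lay below the threshold. At the other extreme, 1035 members had a −log10 q of 10 or more and 110 had 20 or more.

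In position relative to genes the members differed from the rest of the strong clone 2 peaks. The rule did not use position directly, but it removed intervals that overlapped another list, mostly that of clone 1. Strong clone 1 intervals lay mostly at gene ends (63.2% of the private ones and 67.1% of the others). The contrast in position is thus not independent of the rule. Summits were counted at gene ends (up to 1000 bp from one of the borders of a protein-coding or long non-coding gene), in gene bodies, or between genes. Of the members, 51.5% (50.04 to 52.9) lay in gene bodies, 28.5% (27.2 to 29.8) between genes and 20.04% (18.9 to 21.2) at gene ends. Of the 3729 other strong intervals, 58.9% (57.3 to 60.5) lay at gene ends, 28.7% in gene bodies and 12.4% between genes. Of the gene-end members, 66.6% were within 1000 bp of a 5′ end in the promoter table, against 84.7% of the other gene-end intervals. The median distance from a summit to the nearest such 5′ end was 16.1 kb for members and 0.434 kb for the others. The bracketed limits treat intervals as independent, although some members lay close together, and both sets come from 1 library. No test of the difference was made. The gene-end share rested on the clone 1 list: without it, 34.0% of the private intervals and 63.5% of the others lay at gene ends.

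The private peaks of clone 1 were placed differently. Of its 2124 strong private intervals on the same sequence, 63.2% (61.1 to 65.3) lay at gene ends, close to the 67.1% (65.4 to 68.7) of clone 1 intervals that overlapped another list. Members of clone 2 had 20.04% there. The 2 private sets come from 1 library each, so the difference between them is one between libraries. Clone 1 intervals were wider, with a median of 251 bp over all its peaks on chromosomes 1-22 and X against 99 bp in clone 2.

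**Figure D2:**
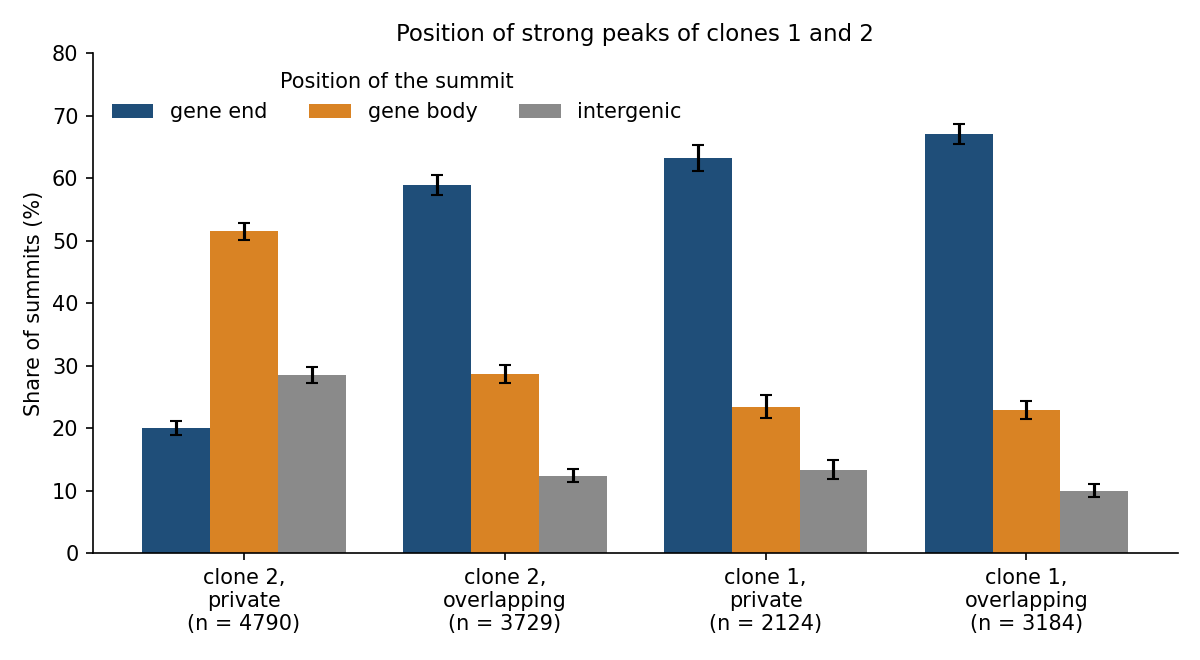
Share of summits at gene ends, in gene bodies and between genes for strong intervals of clones 1 and 2, split by whether the interval is private to its clone. Error bars are exact 95% intervals of counting error; gene ends hold 20.04% of the clone 2 private set and 58.9, 63.2 and 67.1% of the other sets, from left to right.

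Width and position were both related to privacy. Among strong clone 2 intervals, 78.1% of those under 100 bp were private, 59.7% of those from 100 to under 150 bp, 37.8% of those from 150 to under 250 bp and 17.4% of those of 250 bp or more. The part of width in the private status was not tested. Within each width class, intervals at gene ends were private less often: 54.5, 35.8, 18.2 and 5.53% from the narrowest class to the widest. In gene bodies the same shares were 85.6, 72.1, 51.7 and 32.6%, and between genes 88.9, 73.9, 57.1 and 38.2%.

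**Figure D3:**
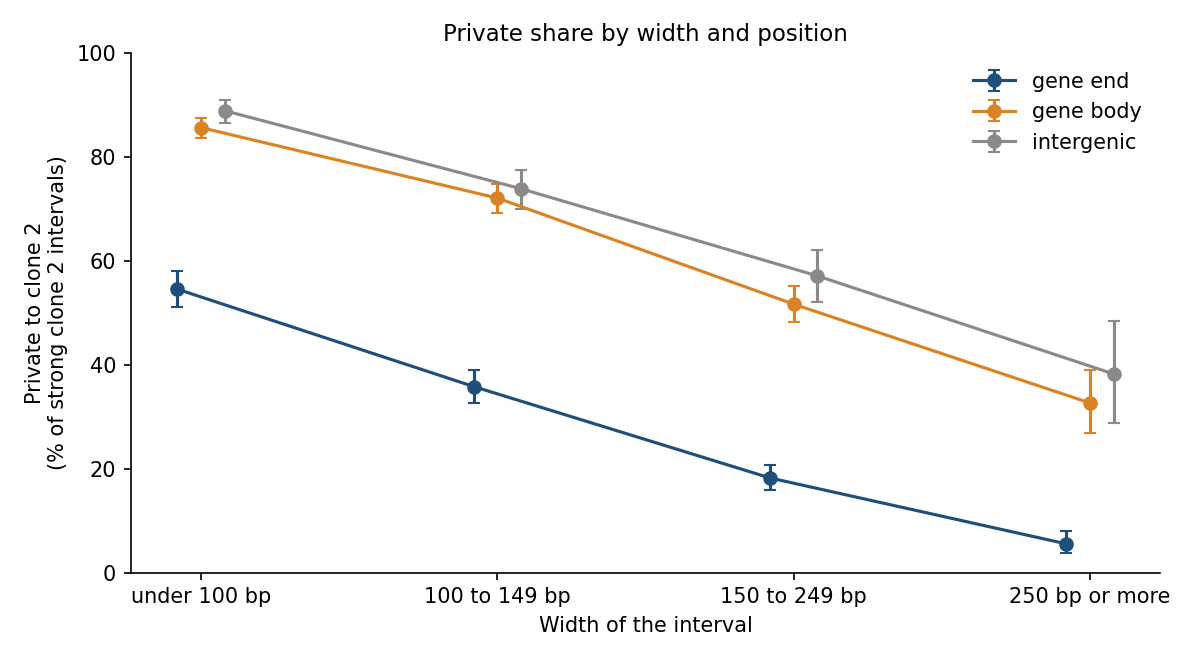
Percentage of strong clone 2 intervals that are private, by width class (x axis) and position of the summit (colours), with exact 95% intervals of counting error. Gene ends run from 54.5% under 100 bp to 5.53% at 250 bp or more and lie below gene bodies and intergenic sequence in each width class.

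Strength and background showed the same order. With a −log10 q of 5 to 10, 63.0% of strong intervals were private, with 10 to 20, 42.4%, and with 20 or more, 29.1%. At gene ends these shares were 36.3, 21.6 and 14.1%, and in gene bodies 74.8, 58.0 and 47.2%. Where the implied background was under 2.5 reads, 88.6% were private, and where it was 10 reads or more, 19.9%. By distance from a 5′ end, the share was 24.7% within 150 bp, 65.0% between 1000 and 10000 bp and 87.3% beyond 100000 bp.

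The rule left out intervals that overlap another list, so the gaps below partly follow from the choice of members. The gap to the nearest one had a median of 34.5 kb, and 1417 members (29.6%) were over 100 kb away. Only 391 (8.16%) had one within 1000 bp, which was a clone 1 interval for 378 and a clone 3 interval for 55. No member was within 1000 bp of a control interval. The same held for all 3729 other strong intervals, so this does not set the members apart. These 391 near neighbours lay at gene ends in 52.7% of cases (47.6 to 57.7), against 17.1% (16.0 to 18.3) of the other 4399 members. FBXL12, an F-box protein gene, is an example: its member at chr19:9819623-9819806 (fold 8.01, −log10 q 28.8) ended 48 bp from a clone 1 interval and 308 bp from a clone 3 interval. The member between CDCA3 and USP5 had gaps of 537 and 468 bp.

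The members with the highest −log10 q were spread over gene ends, gene bodies and intergenic sequence. One of them was a member at chr1:159015623-159015794 inside IFI16, an interferon-inducible DNA sensor (−log10 q 35.0, fold 6.73). The nearest interval of another clone was 61133 bp from the IFI16 site, in clone 1. Another, at chr16:10995-11082 near the end of the short arm of chromosome 16, was inside LOC107987423, an uncharacterised gene listed as protein-coding (34.1, fold 12.9). In SEZ6L2, a membrane protein gene, the member at chr16:29877536-29877891 had 33.7 and a fold of 10.95. ZNF627 (33.5, fold 5.87) and the CDCA3 and USP5 pair (31.8, fold 6.14) followed. OSBPL3, an oxysterol-binding protein gene, had a member in its body at chr7:24821532-24821661 (31.2, fold 7.43), 303608 bp from the nearest interval of clone 1 and 303636 bp from that of clone 3.

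High fold picked a partly different group, with low background. Ranked by fold, the first were 2 members with the same values, 14.7-fold with 34 reads over 1.38: one at chr19:10755263-10755444, within DNM2, the gene of the endocytic GTPase dynamin 2, and one at chr3:195669468-195669555, 51.5 kb from MUC20. TALDO1, which encodes transaldolase of the pentose phosphate pathway, had a member at chr11:749824-750042 with a fold of 14.6 and 28 reads over 0.986. A member at chr17:35521754-35521848 in SLFN12L, a Schlafen family gene, had a fold of 14.4 and a −log10 q of 30.8. The kinase gene CAMKK1 had one at chr17:3886881-3887048 (12.6-fold), and the site at chr12:122681960-122682101, 19.3 kb from the nicotinic acid receptor gene HCAR2, reached 13.7-fold. Of the 12 members with the highest fold, all but those at an end of LIAT1 and of LOC105369183 had a −log10 q of 20 or more. In total 32 members had a fold of 10 or more.

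At protein-coding gene ends the strongest members included several 5′ ends. TMEM248 (fold 8.60, −log10 q 27.5) had its summit 154 bp upstream of its 5′ end and MAST2, a serine/threonine kinase gene, 709 bp upstream (7.87, 27.9), with a clone 1 interval 512 bp away. SLC39A1, encoding a zinc transporter, and CREB3L4, a transcription factor gene, overlap there and shared a member at chr1:153967708-153967822 (4.84, 26.2). VEGFA, the vascular endothelial growth factor gene, had its member outside one end, at chr6:43769661-43769734 (6.71, 22.95), 153 bp from a clone 1 interval. ATXN3, which encodes a deubiquitinating enzyme with a polyglutamine stretch, had one at chr14:92106669-92106772 (6.79, 22.4) 66296 bp from the nearest clone 1 interval. The member at GTF2IRD2B, 43 bp from a clone 1 interval (6.28, 27.2), is uncertain, since this gene has near-identical copies between which reads could be split.

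Between genes, the strongest members after the MUC20 site stood at chr14:76908864-76909059, 38.7 kb from LRRC74A (fold 9.30, −log10 q 26.6), and at chr1:209884796-209884940, 27.3 kb from UTP25 (5.51, 26.4). A member at chr18:4510856-4510987, 55.6 kb from DLGAP1 (4.89, 26.2), was 726885 bp from the nearest clone 1 interval. The one at chr10:5291684-5291896, 72.9 kb from AKR1C4 (7.04, 25.8), was 1975 bp from one.

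A few members had a high background as well as a high pile-up; these were picked after their values were seen. WDCP had the highest, 91 reads over 41.4 at chr2:24047420-24047596 (fold 2.17), and HYCC1 had 92 over 32.1 (2.81). ZBTB20, a zinc finger repressor gene, had 2 members at its 5′ end, with 100 reads over 27.8 and 84 over 28.2. The nearest clone 1 intervals were 511002 and 510767 bp away, and those of clone 3 farther. Only 35 members had an implied background of 20 reads or more, against 254 of the other strong intervals.

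Many genes held several members. Of 17135 protein-coding genes on the sequence used, 14.6% (2499) had a member inside them or at an end, 477 had 2 or more and 131 had 3 or more. The part of gene length in these counts was not tested. Around a summit inside a protein-coding gene, that gene had a median length of 95.5 kb for members and 59.8 kb for the other strong intervals. The genes named next were ranked by their number of members, which favours genes with a high private share. Over all strong clone 2 intervals in gene bodies, 69.8% were private. EIPR1, MAD1L1 and SYN3 had 7 members each. In EIPR1, all 7 strong clone 2 intervals were private, with folds of 3.20 to 6.66, and 4 of them lay between 3294679 and 3296826 on chromosome 2. MAD1L1, a spindle checkpoint gene, had 6 other strong intervals beside its 7 members, the strongest member at chr7:2145943-2146083 with a fold of 10.9. SYN3, a synapsin gene of synaptic vesicles, had members from 5.38 to 10.1-fold.

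Genes with 6 members included HPCAL1, a neuronal calcium sensor gene, ZDHHC14, ZNF469, ITPR1, the inositol trisphosphate receptor gene, and PTPRN2. All 6 strong clone 2 intervals in ZDHHC14, ZNF469 and PTPRN2 were private, and ITPR1 had 3 other strong ones. These genes too were ranked by their number of members, and 69.8% of all strong gene-body intervals were private. ANKRD30BL had 5 members between 132252576 and 132258137 on chromosome 2. PCDHA5 and PCDHA6, overlapping protocadherin genes on chromosome 5, shared 5 members with each other. ELL, an RNA polymerase II elongation factor gene, had 5 members with folds of 4.03 to 5.68.

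By chromosome the private share ran from 48.0% on chromosome 19 (44.7 to 51.2) to 69.4% on chromosome 4 (63.5 to 74.8). Chromosomes 1, 16, 17 and 19 were below 50%, and chromosomes 2, 4, 18 and X above 60%, as were 3, 6 and 10. Chromosome 2 had the most members (602), followed by 1 (520), 19 (448) and 3 (418). In windows of 1000000 bp, 1620 of the 1797 with a strong interval held a member, with a median of 2. Chromosome 19 supplied 14 of the 42 windows with 10 or more members. The highest count, 29, was reached in 2 windows of it, the first 1 Mb (29 of 38 strong intervals) and 18 to 19 Mb (29 of 43).

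**Figure D4:**
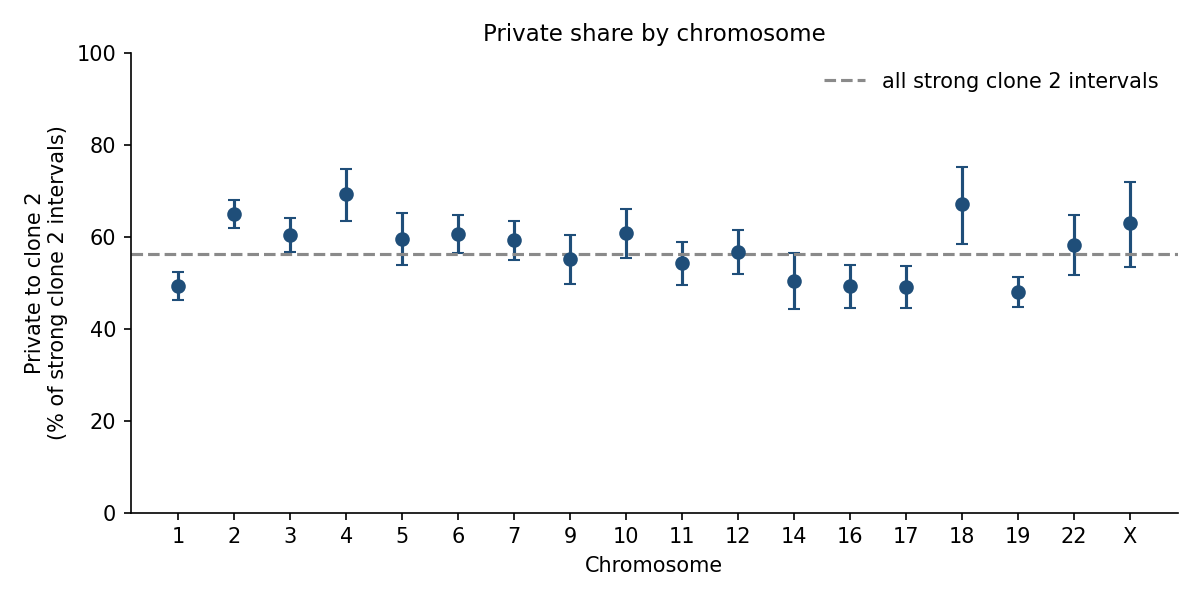
Percentage of strong clone 2 intervals private to the clone on each chromosome used, with exact 95% intervals of counting error and a dashed line at the 56.2% of all. Chromosome 19 is lowest at 48.0% and chromosome 4 highest at 69.4%.

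A window on chromosome 2, from 172 to 173 Mb, differed from the others in background. Its 18 members had a median implied background of 17.7 reads (7.10 to 35.9), against 3.35 over all members, and a median fold of 3.34. ITGA6, the integrin alpha 6 gene, held 5 of them, with folds of 2.17 to 3.31. The next highest median among windows with 5 or more members was 11.5 reads, in the adjoining window from 173 to 174 Mb.

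Sequence composition of the promoters concerned was examined with the promoter table, which gave 30612 windows of 23748 genes on the sequence used; several windows can belong to 1 gene. A member summit lay in 563 windows and another strong clone 2 summit in 2051, and none held both. Windows with a member had a median G and C content of 61.0%, those with another strong summit 65.0%, and those with neither 57.7%. G and C reached 60% in 54.9, 76.5 and 45.0% of windows, respectively. The ratio of observed to expected CpG, which is low where CpG has been lost over evolution, had medians of 0.768, 0.875 and 0.518. Windows with a member therefore lay between those with another strong clone 2 summit and those with neither in both measures. Windows with neither are not all closed, since weaker clone 2 summits and summits of the other clones were not counted here.

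**Figure D5:**
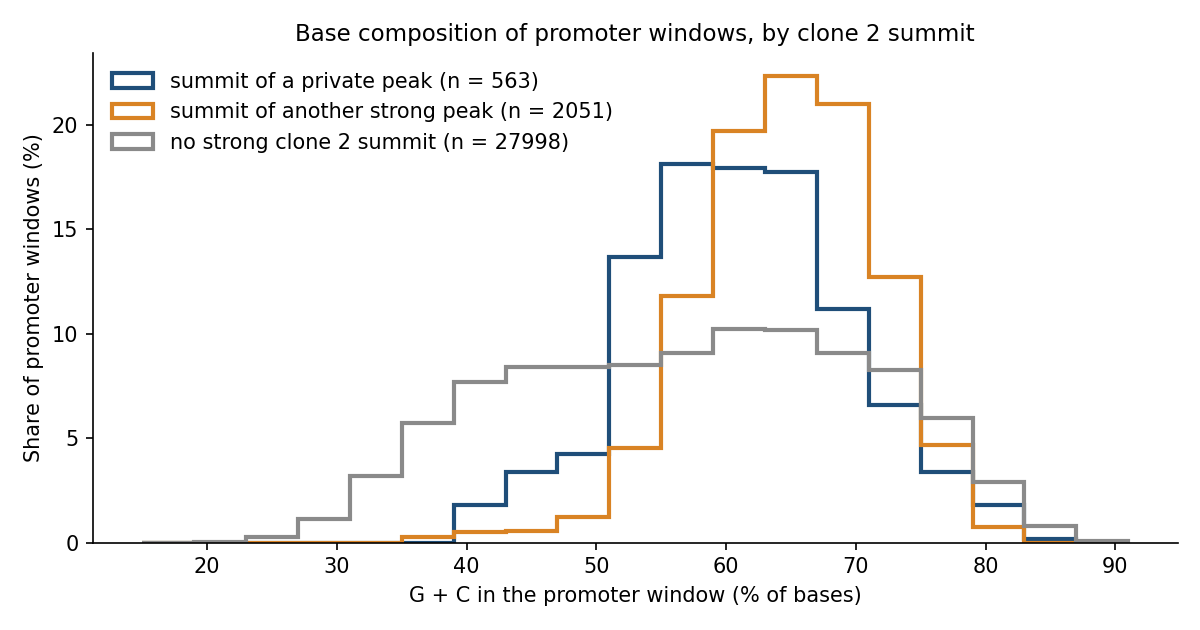
Distribution of G and C content over promoter windows, as the share of windows in each class, for windows with a member summit (563), another strong clone 2 summit (2051) or neither (27998). The medians are 61.0, 65.0 and 57.7%.

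Letters of known motifs were counted in the same windows. Searched on both strands, GGGCGG (SP and KLF factors) occurred in 62.0% of windows with a member, 76.3% of those with another strong summit and 45.6% of all windows. CCAAT (NFY) occurred in 46.2, 55.8 and 34.8%, and CCGGAAG (ETS) in 24.7, 22.7 and 10.2%. GAGGAAG, the letters of PU.1, the master regulator of myeloid cells, occurred in 16.9, 14.04 and 13.5%; it shares GGAAG with the ETS letters. TGANTCA (AP-1) stood in 9.24% (52 of 563) of windows with a member, 3.56% (73 of 2051) of those with another strong summit and 7.70% of all. TATAAA was in 4.44, 3.07 and 11.2%. For TTGCNNAA (C/EBP) the shares were 7.46, 6.53 and 10.4%, for CACGTG (E-box) 9.24, 10.7 and 7.34%, for TGACGTCA (CREB) 3.20, 4.92 and 1.91%, for the CTCF core 2.66, 3.32 and 2.39%, and for the NRF1 site 1.42, 2.39 and 1.23%.

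The depleted genes carried no member. Only 14.6% of all protein-coding genes on the sequence used had a member inside them or at an end, so nothing is drawn from this. The nearest members lay 37.5 kb from CTSG, 16.6 kb from ELANE and 13.1 kb from PRTN3. ATAC-seq does not measure the proteins, so this does not check the genotype. The member nearest PRTN3, at chr19:827688-827876, had its summit 47 bp upstream of the 5′ end of AZU1, the gene of azurocidin, a neighbour in the same granule protein cluster (fold 4.62, −log10 q 5.97, 20 reads over 3.55).

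Across gene lists, a member stood at an end of 860 of the 17135 protein-coding genes (5.02%), another strong clone 2 summit at 13.7% and a summit of clone 1 or 3 at 38.8%. Of the 860 genes, 308 also had a clone 1 or 3 summit at an end, at another place. Azurophil granule genes had a member at 3 of 12. Beside AZU1 these were CTSC, encoding cathepsin C, which activates the neutrophil serine proteases (chr11:88338510-88338577, 816 bp upstream of the 5′ end, fold 3.51, −log10 q 6.50), and SRGN, encoding the granule proteoglycan serglycin (chr10:69088083-69088158, 4.59, 5.65). None of the 3 had a clone 1 or clone 3 summit at an end, and all were near the lower limit of −log10 q. The list is small and was chosen with earlier results known, and nothing particular to it is drawn from 3 genes.

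Among monocyte genes, 2 of 27 had a member, both at 3′ ends. CSF1R, the receptor of macrophage colony-stimulating factor, had one at chr5:150053309-150053422 (fold 6.37, −log10 q 12.2), 74 bp inside the gene, and CD14, the lipopolysaccharide co-receptor, one 423 bp outside it (4.34, 7.87). Myeloid transcription factor genes had 0 of 14 and interferon genes 0 of 18, beside 5.02% of all protein-coding genes. A clone 1 or 3 summit stood at 5 and 10 of them, beside 38.8% of all protein-coding genes. With lists this small, nothing is drawn from these counts. Of the NF-kB and cytokine genes 1 of 20 had a member, beyond the 3′ end of IL10 (4.34, 6.23). Of the myeloid markers, 2 of 10 had a member, CSF1R and CD68, beside 5.02% of all protein-coding genes. The CD68 member (4.57, 5.33) lay 138 bp beyond its 3′ end. An interval of clone 2 of any strength stood at an end of 4 of these 10 markers. CD68 had clone 1, clone 3 and other strong clone 2 summits at its ends too.

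Ribosomal protein genes, with close paralogs, had a member at 4 of 74 genes (5.41%, beside 5.02% of all protein-coding genes), another strong clone 2 summit at 23 and a clone 1 or 3 summit at 52. RPL14 was the strongest, with a summit 57 bp upstream of its 5′ end (chr3:40457243-40457347, fold 4.11, −log10 q 14.1), followed by RPL7L1, RPS6 and RPL34. Histone genes had 2 of 71 (2.82%), against 23 with another strong summit, the 2 being H2BC5 and H4C5. Cell cycle genes had 3 of 20 (15%), with another strong clone 2 summit at 6 and a clone 1 or 3 summit at 13. The 3 were the replication helicase genes MCM2 (6.41, 6.66) and MCM6 (3.21, 8.53), each with a clone 1 summit at an end, and the checkpoint kinase gene BUB1 (3.49, 5.78).

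Zinc finger genes had a member at 38 of 467 (8.14%), beside 5.02% of all protein-coding genes. Another strong clone 2 summit stood at 52 (11.1%), beside 13.7% of all. A clone 1 or 3 summit stood at 157 of the 467, beside 38.8% of all. After ZNF627, the strongest were ZNF107 (chr7:64665953-64666085, fold 3.79, −log10 q 20.6), ZNF296 (5.55, 20.5), ZNF37A (4.42, 18.9), ZNF169 (6.13, 18.3) and ZNF519 (3.75, 17.4); of these 6, only ZNF296 had a clone 1 summit at an end and none had one of clone 3. Among all 860 genes with a member at an end, 35.8% had a clone 1 or 3 summit at an end. ZNF490 and ZNF791 counted a single shared member. Olfactory receptor genes had a member at 1 of 342 (0.292%), OR2V2 (6.73, 9.28), beside the same 5.02% of all protein-coding genes.

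Markers of other cell types are too few to set against the 5.02% of all protein-coding genes. The B cell list had 1 of 5, CD79A (fold 5.05, −log10 q 7.09), and the neuronal list 1 of 5, NEUROD1, with a summit 115 bp upstream of its 5′ end (4.09, 10.3). The lists for T and NK cells (8 genes), erythroid cells (6) and hepatocytes and epithelium (8) had none. Small RNA genes were counted with 200 bp added on each side. Of the 4790 members, 2 (0.042%) stood at tRNA genes, 0 at snRNA genes, 7 (0.15%) at miRNA genes and 3 (0.063%) at snoRNA genes. Of the 3729 other strong intervals, 23 (0.62%), 8 (0.21%), 11 (0.29%) and 1 (0.027%) did. Pseudogenes held 2.48% (2.06 to 2.97) of members and 1.66% (1.28 to 2.13) of the others.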

How the data were processed

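The authors deposited 1 peak list per library for 6 libraries, grouped by sample title into 3 control lines and 3 clones. The submitters' processing notes name GRCh38 as build and, as tools, MACS2, Bowtie2, Picard and FastQC. The sources used here do not give versions, settings, read totals or any shift of transposase cut sites. For each summit the authors deposited a fold enrichment (a ratio over local background), −log10 p and −log10 q, and a score, which is 10 times the −log10 q cut to a whole number and was not used. Lines sharing an interval were counted once, by the highest −log10 q; 127 summit offsets below 0 in clone 2 were set to 0. Overlaps were computed in Python 3.11.15 and the count of 4790 was checked with bedtools 2.31.1.

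Taking the fold to be (pile-up + 1) over (background + 1) and p to be the Poisson tail, the whole-number pile-up that best gave the −log10 p was sought. It came within 0.001 for 100% of 18711 clone 2 intervals, and the method recovered 100% of 1983 simulated pile-ups. The simulation used the same formula. Its backgrounds and pile-ups stopped short of the highest in the data, such as the background of 41.4 reads among members, so recovery there was not checked. Genes (19974 protein-coding, 18177 long non-coding) and promoters came from RefSeq, GRCh38.p14; only the promoter table gives strand, and it is not complete. Genes reaching into the left-out sequence were not counted. Named members were the 12 highest by −log10 q, the 12 highest by fold, 10 at protein-coding gene ends, 5 in gene bodies and 5 between genes by −log10 q, the 3 on each side of the threshold (of 23 tied inside it, 2 are named), up to 6 promoter sequences, genes with the most members and list genes; some of these are not reported here. Alternatives varied the threshold, the overlap, the lists, the sequence, the window, the genes and the width. Members and lists were chosen with earlier results of these data known.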

Additional observations from a re-analysis of the deposited data

How the results depend on the processing

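Shares and medians moved with most settings, but members lay at gene ends less often than the other strong clone 2 intervals under each of the 13 alternatives. Leaving out the 3 control lists changed no value, so that alternative could not differ. All alternatives except that without clone 1 still removed overlaps with its list. They therefore do not examine the contrast in position independently of the rule. The values as reported were 4790 members, 56.2% of strong intervals, with 20.04% at gene ends, 51.5% in gene bodies, 28.5% between genes, 58.9% of the others at gene ends, a median fold of 5.27 and a median width of 102 bp. With a −log10 q of 10 or more, 1035 members (40.4%) had 22.8, 53.3 and 23.9% at gene ends, in bodies and between genes, 60.8% of the others at gene ends, a fold of 6.04 and a width of 133 bp. With 3 or more, 9183 members (64.4%) had 18.1% at gene ends and 30.7% between genes, a fold of 4.63 and a width of 93 bp. With a fold of 5 or more added, 2758 members (73.4%) had 14.8, 54.0 and 31.3%, 41.8% of the others at gene ends, a fold of 5.92 and a width of 97 bp. Asking for a gap of over 1000 bp left 51.6%, with 17.1% at gene ends, 53.2% in bodies and a fold of 5.32. With no sequence left out the share was 59.5%, the others had 57.3% at gene ends and the fold was 5.33. Counting only strong intervals of clones 1 and 3 as overlap gave 73.0%, with 26.7, 47.6 and 25.7%, 65.2% of the others, a fold of 5.05 and a width of 110 bp. Intervals of 100 bp or more left 2478 members (44.6%), with 26.7% between genes, a fold of 5.05 and a width of 139 bp. A window of 500 bp gave 14.9% at gene ends, 55.3% in bodies and 53.2% of the others; 2500 bp gave 30.7, 43.9 and 25.4%, and 66.5% of the others; protein-coding genes alone gave 15.7, 45.1 and 39.2%, and 54.1% of the others. Leaving out clone 1 or clone 3 gave 4919 to 7623 members, 57.7 to 89.5% of strong intervals, 20.4 to 34.0% at gene ends, 43.4 to 51.3% in bodies, 22.6 to 28.3% between genes, 59.9 to 63.5% of the others at gene ends, folds of 4.79 to 5.27 and widths of 103 to 117 bp; the value farther from the reported one is that without clone 1 each time, and clone 2 cannot be left out, being the source. Thresholds, windows and left-out lists change which intervals enter by construction; otherwise the cause was not tested. No paired analysis was possible because the members come from 1 library. Depth was not given, so a site just below the peak threshold in clone 1 or 3 cannot be told from a closed one.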
